A study of Mus musculus with 4 samples.

Results

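Il6, Il6st, Lif, Osmr, Il1b, Il1r1, Tnf, Csf1, Csf1r and Il33 are 10 of the 31053 genes counted in the 4 single-cell libraries. They were taken as a named set of interleukin-6 family and inflammatory cytokine genes, ligands and receptors together, to see which cell classes of a prostate tumor and of adipose tissue carried them and whether tumor fibroblasts had an inflammatory pattern. The libraries came from FVB mice (written VFB in the labels) fed chow, and the tumors were grafts under the skin of MycCaP, a prostate cancer cell line derived from HiMyc mice. Mice received either PBS (control) or D-CAN, a peptide that homes to adipose stromal cells and depletes them. For each treatment there was 1 library of the tumor and 1 of the stromal and vascular cells of subcutaneous adipose tissue (SAT), so D-CAN and control are set side by side with no test. The age of the mice, whether the SAT donors carried grafts and whether a library pooled several mice are not given in the sources used here. Dead cells and red cells had been removed before capture.

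Interleukin-6, LIF and oncostatin M are cytokines that signal through receptor complexes sharing gp130, the product of Il6st, and switch on JAK and STAT3 in the receiving cell. Interleukin-1 beta and TNF are made mainly by myeloid cells and lymphocytes and act on stromal cells through receptors such as the one encoded by Il1r1, switching on NF-kB, which in turn drives Il6 and many chemokines. CSF1 keeps macrophages alive through its receptor Csf1r, and IL-33 is stored in the nuclei of stromal cells and released on damage. In tumors, fibroblasts that make IL-6, LIF and chemokines have been called inflammatory (iCAF), as distinct from contractile, matrix-rich myofibroblasts (myCAF), and interleukin-1 is a known inducer of the former.

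The tumor control library held 17996284 UMIs (unique transcript molecules) in 2830 cells, the tumor D-CAN library 15672787 in 1525, the SAT control library 6667064 in 2851 and the SAT D-CAN library 7444729 in 1922. Of 9128 cells, 8986 had at least 200 genes and were used. Cells were clustered per tissue without the 10 genes or the gene lists used below, and clusters were named from markers as fibroblast-like (82, 66, 292 and 87 cells in the tumor control, tumor D-CAN, SAT control and SAT D-CAN libraries, the order used throughout), perivascular-like (112, 51, 210 and 46), endothelial-like (101, 67, 520 and 170) and myeloid-like (585, 362, 261 and 134). Lymphocyte-like cells (1508 and 1401) were named only in SAT and cancer-like cells (1140 and 614) only in tumors. The cancer-like class rested on Cldn3, Krt8, Spint2 and Cldn4, while the epithelial markers Epcam, Krt18, Cdh1 and Cldn7 were at or near 0, which goes against a typical epithelial profile. Unnamed clusters held 26.8%, 22.0%, 1.76% and 3.11% of cells. Median depth differed between libraries within a class, most of all for SAT fibroblast-like cells, with 877.5 UMIs per cell in control and 4739 in D-CAN. The SAT perivascular-like class was unstable: its 210 and 46 cells became 17 and 36 when cells with over 20% mitochondrial UMIs were left out. With the same cells at resolution 1.2 instead of 0.8, they became 21 and 37. The SAT endothelial-like cells then went from 520 and 170 to 710 and 179, so the naming of these classes depended on the setting. Levels, shares and contrasts of SAT perivascular-like cells below are those of the main setting unless another is named. Levels are given as CPM, the UMIs of a gene per 1000000 UMIs of that class in that library, and intervals in brackets cover 95% counting error only.

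Il6 was a gene of stromal and vascular cells, and in SAT its largest holder was endothelium rather than fibroblasts. Only 15, 18, 59 and 89 Il6 UMIs were counted in the 4 libraries. Endothelial-like cells held 20%, 55.6%, 67.8% and 64% of them, and fibroblast-like cells 26.7%, 38.9%, 6.78% and 15.7%. Perivascular-like cells held 53.3%, 5.56%, 25.4% and 15.7%, the largest share in the tumor control library. Fibroblast-like cells had 9.59 (2.61 to 24.5), 11.6 (4.68 to 24.0), 7.39 (2.01 to 18.9) and 30.9 (16.9 to 51.8) CPM. Endothelial-like cells had 10.8 (2.23 to 31.5), 34.4 (16.5 to 63.2), 36.0 (25.7 to 49.0) and 56.8 (43.0 to 73.6) CPM, so the intervals of both classes overlapped in the tumors and the endothelial level was the higher in the SAT control library. Perivascular-like cells had 22.0, 3.27, 33.4 and 50.8 CPM. Cancer-like cells held no Il6 UMI in either tumor, and myeloid-like cells held 1 UMI in all 4 libraries. Pooled over both tissues, Il6 was compared with the level that 3 UMIs over the whole cancer-like class would give. It was at least 127-fold higher in fibroblast-like and at least 361-fold higher in endothelial-like cells. The cancer-like class came only from tumors, whereas 97 of the 110 endothelial-like and 18 of the 29 fibroblast-like UMIs came from SAT. The means of the tumor libraries alone were 22.6 CPM in endothelial-like and 10.6 in fibroblast-like cells. Il6 UMIs sat in few cells: 5 cells held 53.3%, 44.4%, 44.1% and 37.1% of the Il6 UMIs of their library.

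Within SAT endothelium, Il6 was concentrated in 1 cluster, led by Tmem252, Selp and Sele, the latter genes encoding the adhesion molecules P-selectin and E-selectin of activated venous endothelium. That cluster had 79.1 (56.5 to 108) CPM of Il6 in control and 117 (87.3 to 153) in D-CAN, from 40 and 53 UMIs. The cluster led by Car4, Btnl9 and Gpihbp1 had 0 and 4 Il6 UMIs, and the intervals did not overlap in either library. The shared receptor subunit Il6st followed the same split, at 878 and 904 CPM in the Selp cluster and 175 and 179 in the Car4 cluster.

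3 stretches of promoter are shown because NF-kB and AP-1 are the factors through which interleukin-1 and TNF are known to act on these genes. They come from RefSeq (GRCm38.p6) and are read 5′ to 3′ on the strand of the gene, with the motif in capitals. The Il6 gene lies at chr5:30013114-30019981, and its NF-kB window is chr5:30013060-30013089, with the motif 44 to 35 bases before the start site.
Il6 NF-kB: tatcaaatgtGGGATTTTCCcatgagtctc
The Csf1 gene lies at chr3:107741048-107760469 on the minus strand, and its window, with the motif on the opposite strand, is chr3:107760604-107760633.
Csf1 NF-kB: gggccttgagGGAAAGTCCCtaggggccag
The Lif gene lies at chr11:4257557-4272514, and its AP-1 window is chr11:4257330-4257356.
Lif AP-1: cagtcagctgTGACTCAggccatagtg
The motifs were searched on both strands over 250 bases before each start site, as GGGA, any base, then TTTCC for NF-kB, held by 0.356% of 32851 promoters, and TGANTCA for AP-1, held by 6.75%. Of the 9 members with a promoter in the table, Il6 and Csf1 had the NF-kB letters and Il6 and Lif the AP-1 letters. A match is only a match of letters, and binding was not measured here.

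Lif, the other gp130 ligand, had its highest level in fibroblast-like cells of the tumors. It was at 33.6 (18.3 to 56.3) and 31.6 (19.0 to 49.3) CPM in tumor fibroblast-like cells against 3.69 (0.447 to 13.3) and 6.62 (1.36 to 19.3) in SAT, where it rested on 2 and 3 UMIs. The mean of the tumor libraries was 6.31 times that of SAT and their ranges of values did not overlap, although the counting intervals of the D-CAN libraries did. No Lif UMI was found in endothelial-like cells of any library, so the pooled fibroblast-like level was at least 16.9-fold higher than 3 UMIs over that class would give. Cancer-like cells had only 1.43 and 1.77 CPM, but being the deepest class they held 40.8% and 43.1% of tumor Lif UMIs, with 9 and 13 UMIs in the cluster led by Msln, Saa1 and Upk3bl. In SAT, lymphocyte-like cells held 88.9% and 46.7% of only 18 and 15 Lif UMIs.

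Il6st and Osmr, the receptor side of the family, were carried by all 3 stromal classes. Il6st in fibroblast-like cells was 180 (141 to 225), 128 (101 to 160), 238 (199 to 283) and 265 (219 to 317) CPM. Endothelial-like cells had 122 (84.7 to 171), 272 (215 to 338), 481 (441 to 524) and 507 (464 to 553) CPM, the highest level of Il6st in any named class in 3 of the 4 libraries. Lymphocyte-like cells had 43.2 and 51.7 CPM and cancer-like cells 4.64 and 4.42. Osmr, the oncostatin M receptor subunit that pairs with gp130, was at 86.3, 59.8, 27.7 and 39.7 CPM in fibroblast-like, 90.6, 68.7, 82.4 and 54.4 in perivascular-like and 32.4, 65.3, 90.0 and 104 in endothelial-like cells. Outside these classes Osmr did not exceed 3.16 CPM. Osm itself, the ligand, had 0 UMIs in fibroblast-like, perivascular-like, endothelial-like and cancer-like cells of every library, and 48.8, 42.3, 17.4 and 22.7 CPM in myeloid-like cells. Ligand and receptor of this pair were therefore counted in different classes.

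The other genes of the IL-6 pathway were read as a list of 18 partners, of which 12 could be tested. Il6ra, the subunit that gives IL-6 its specificity, was at 4.79 and 0 CPM in tumor fibroblast-like cells but at 51.7 and 50.7 CPM in those of SAT. Il11ra1, the interleukin-11 receptor, was at 376, 228, 244 and 351 CPM in fibroblast-like cells and at 36.4, 27.8, 28.5 and 16.1 in myeloid-like cells. Of the most counted partners, Jak1 (kinase), Stat3 (the transcription factor it activates), Jak2 and Socs3 (a feedback inhibitor that STAT3 induces), Jak1 was at 182, 174, 292 and 232 CPM in fibroblast-like cells. Socs3 in SAT was 133 (104 to 168) CPM in control and 373 (319 to 433) in D-CAN fibroblast-like cells, and 253 (224 to 284) and 464 (423 to 509) in endothelial-like cells. Both pairs of intervals were apart, while Socs3 in tumor fibroblast-like cells was 101 and 110 CPM.

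**Figure D1:**
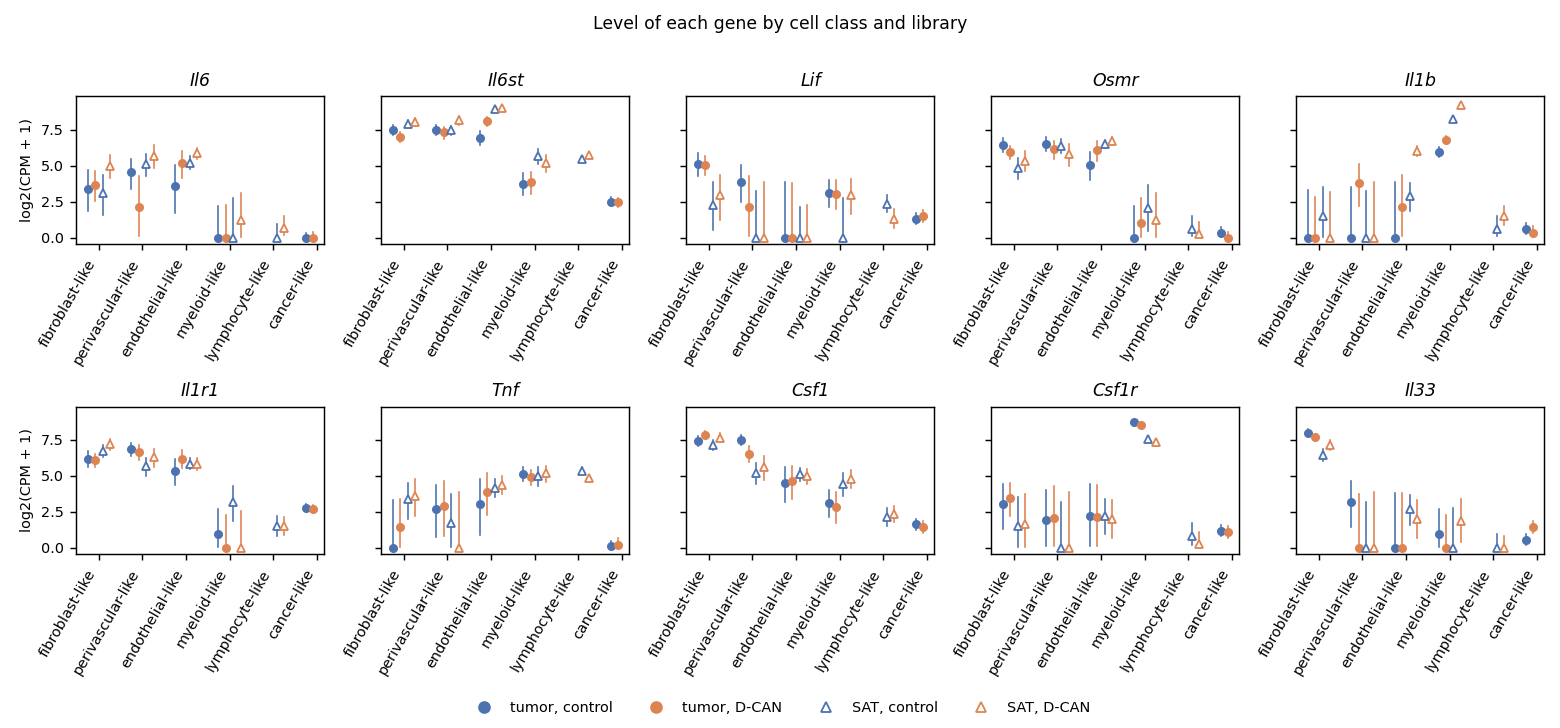
Level of each of the 10 genes, as log2(CPM + 1), in the cell classes of the 4 libraries, with filled circles for tumor, open triangles for SAT, blue for control, orange for D-CAN, and vertical lines for 95% counting intervals. Il6, Il6st, Osmr and Il1r1 are spread over fibroblast-like, perivascular-like and endothelial-like cells, Il33 stands in fibroblast-like cells, and Il1b and Csf1r stand in myeloid-like cells.

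Il1b was a myeloid gene in both tissues. Myeloid-like cells had 61.3 (47.2 to 78.3), 108 (88.6 to 131), 302 (261 to 348) and 590 (536 to 648) CPM and held 74.4%, 85.4%, 95% and 85.8% of the UMIs. Fibroblast-like cells held 1 Il1b UMI in all 4 libraries, which puts the pooled myeloid-like level 475 times higher (85.1 to 18799). The mean of the SAT libraries in myeloid-like cells was 5.26 times that of the tumors, with ranges apart. The class was not made up alike in both tissues. The SAT level came from few cells: the cluster led by Retnlg, Wfdc17 and Il1b had 16 and 18 cells and 5993 and 8750 CPM, and these cells gave 136 and 320 of the 201 and 514 Il1b UMIs. The SAT cluster led by Retnla, Lyz2 and C1qa had 141 and 243 CPM. In tumors the cluster led by Ccl12, Ctss and C1qa had 197 and 343 CPM, against 9.94 and 39.8 in the cluster led by Lyz2, C1qa and C1qb, which is the larger one. The tumor cluster led by S100a8, S100a9 and Trbc2 was unnamed and so outside the myeloid-like class. It held 17.4% and 8.13% of tumor Il1b UMIs.

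Il1r1, the signalling receptor for Il1b, was a gene of stromal and vascular cells. It was at 71.9 (48.5 to 103), 66.5 (47.5 to 90.5), 105 (79.8 to 136) and 143 (111 to 183) CPM in fibroblast-like cells, 113, 98.2, 49.0 and 76.2 in perivascular-like cells and 39.6, 72.2, 56.7 and 55.8 in endothelial-like cells. In myeloid-like cells it did not exceed 7.91 CPM. Cancer-like cells were at 5.78 (4.59 to 7.18) and 5.47 (4.25 to 6.93) CPM, a low level that nevertheless made up 46.0% and 42% of tumor Il1r1 UMIs. In the tumor control library the cancer-like class had 81 Il1r1 UMIs and 3 Osmr UMIs, whereas fibroblast-like cells had 30 and 36, so these genes did not keep 1 ratio in both classes. Among the IL-1 partners, the decoy receptor Il1r2 was at 198 and 218 CPM in SAT fibroblast-like cells and at 21.6 and 11.6 in those of the tumors, and the receptor antagonist Il1rn had 0 UMIs in fibroblast-like cells and 60.3, 60.9, 31.6 and 6.69 CPM in myeloid-like cells.

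Tnf was shared by myeloid-like and lymphocyte-like cells at similar levels, with a smaller level in SAT endothelial-like cells. The latter had 17.1 (10.3 to 26.7) and 19.9 (12.2 to 30.8) CPM, intervals that overlapped those of SAT myeloid-like cells. Among them the Car4 cluster had 18.7 and 30.2 CPM and the Selp cluster 11.9 and 8.80. SAT endothelial-like cells held 9.31% and 10.8% of SAT Tnf UMIs, beside 9.31% and 14.0% in myeloid-like cells. Myeloid-like cells had 33.5 (23.3 to 46.6), 28.9 (19.2 to 41.7), 30.1 (18.1 to 46.9) and 34.8 (22.7 to 51.0) CPM, which overlapped in all 4 libraries. SAT lymphocyte-like cells had 40.1 and 27.4 CPM and, being many, held 76.5% and 72% of SAT Tnf UMIs. Among them the cluster led by Xcl1, Klrc2 and Ifng, genes of natural killer and activated T cells, was highest at 98.0 and 89.5 CPM. Fibroblast-like cells were at 0, 1.66, 9.24 and 11 CPM, from 11 UMIs in all, and cancer-like cells held 3 UMIs. In the list of TNF and NF-kB partners, Nfkbia, an inhibitor that NF-kB induces, was at 256, 198, 443 and 487 CPM in fibroblast-like cells and at 258, 309, 1028 and 1208 in myeloid-like cells.

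Csf1 was mainly a gene of stromal cells and its receptor Csf1r of myeloid cells. Csf1 in fibroblast-like cells was 173 (135 to 217), 231 (194 to 273), 142 (112 to 178) and 201 (162 to 246) CPM, and these cells held 38.7%, 67.5%, 49.4% and 52.3% of its UMIs. Perivascular-like cells had 181 (140 to 230) and 91.7 (60.9 to 132) CPM in tumors and 35.6 and 47.1 in SAT, where the mean was 3.30 times lower. In SAT, endothelial-like cells held 23.7% and 17.2% of Csf1 UMIs, at 33.3 and 29.9 CPM, beside 10.3% and 7.47% in perivascular-like cells. Csf1r was at 430 (391 to 472), 375 (338 to 416), 183 (152 to 220) and 158 (131 to 189) CPM in myeloid-like cells, which held 94.1%, 93.6%, 93.5% and 95.9% of its UMIs. It was detected in 48.4% and 54.1% of tumor myeloid-like cells (median 1493 and 2188 UMIs) and in 16.9% and 25.4% of those of SAT (1075 and 3669), against 0.199% and 0.0714% of SAT lymphocyte-like cells (2158.5 and 2901). In SAT 108 and 114 of its UMIs were in the Retnla cluster, at 292 and 259 CPM. The cluster led by H2-M2, Ccl22 and Apol7c, 38.3% and 34.3% of SAT myeloid-like cells, had 1 Csf1r UMI in each library. Il34, the other ligand of Csf1r, was at 28.8, 56.5, 35.1 and 24.3 CPM in fibroblast-like cells and at 68.6, 105, 66.8 and 94.3 in perivascular-like cells, and had 0 UMIs in myeloid-like cells.

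Il33 was the most fibroblast-restricted of the 10 genes by its shares of UMIs. Fibroblast-like cells held 91.3%, 85.2%, 88.7% and 92.8% of Il33 UMIs at 252 (206 to 305), 201 (167 to 240), 86.8 (63.8 to 115) and 141 (109 to 180) CPM. The tumor mean was 1.99 times the SAT mean and the ranges of values were apart, although the counting intervals of the D-CAN libraries overlapped. Il33 was found in 0 of 1508 and 0 of 1401 SAT lymphocyte-like cells, which, with a floor of 3 cells, allows shares of cells with an Il33 UMI of up to 0.199% and 0.214% for counting error only. It had 3 UMIs over all perivascular-like and 3 over all myeloid-like cells. Within tumors, the cluster led by Dcn, Apod and Cpxm1 had 581 and 316 CPM and the cluster led by Thbs4 and Cilp 164 and 184. Within SAT, the cluster led by Igfbp6, Mfap5 and Pi16 had 103 and 205 CPM.

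**Figure D2:**
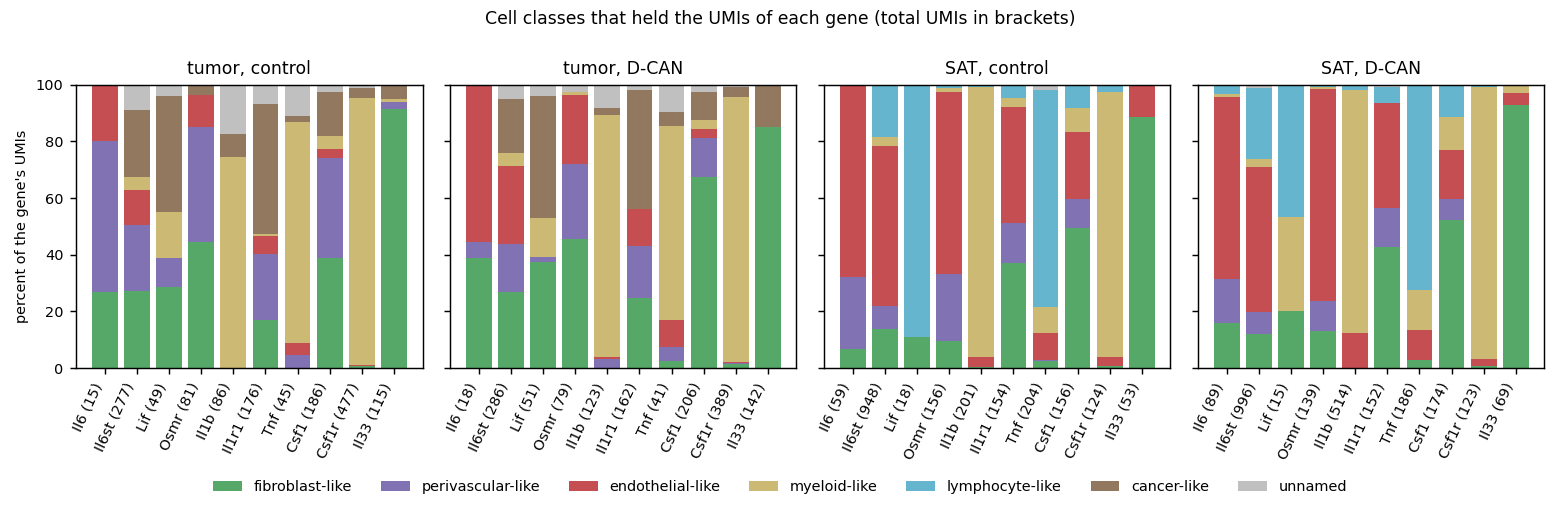
Percent of the UMIs of each gene that each cell class held, 1 panel per library, with the total UMIs of the gene in brackets. Fibroblast-like cells (green) hold most Il33, myeloid-like cells (yellow) most Il1b and Csf1r, and endothelial-like cells (red) most SAT Il6, Il6st and Osmr.

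Differences between classes were tested with edgeR's quasi-likelihood test on the 20 class sums of the 4 libraries, with the library as a block, over 10418 genes, and p-values were adjusted by the Benjamini-Hochberg method. Classes of 1 library share that library, so the p-values measure the spread of these class sums and not of separate mice. Against myeloid-like cells, 6 of the 10 genes were called higher in fibroblast-like cells, where 21.6% of all genes were, and 3 were called lower, where 18.7% of all genes were. Those called higher were Il6, Il6st, Osmr, Il1r1, Csf1 and Il33, and those called lower were Il1b, Tnf and Csf1r. Csf1 was 12-fold higher (log2 3.59 ± 0.48 SE, edgeR adjusted p = 1.395e-05) and Il6st 7.47-fold higher (log2 2.90 ± 0.31, edgeR adjusted p = 1.677e-06). Csf1r differed by log2 -5.84 ± 0.29 (edgeR adjusted p = 2.552e-09) and Tnf by log2 -2.69 ± 0.49 (edgeR adjusted p = 3.013e-04). Lif was not called, at log2 1.53 ± 0.73 (edgeR adjusted p = 0.1132).

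Against endothelial-like cells, Lif, Csf1 and Il33 were called higher in fibroblast-like cells, 3 of 10 beside 15.2% of all genes, and Il1b was called lower, 1 of 10 beside 13.4%. Csf1 was 6.92-fold higher (log2 2.79 ± 0.45 SE, edgeR adjusted p = 1.764e-04) and Il33 was 46.2-fold higher (log2 5.53 ± 0.60, edgeR adjusted p = 5.793e-06). Of the 72 endothelial-like Il1b UMIs behind its call (edgeR adjusted p = 0.01301), 64 were in 4 cells of the SAT D-CAN library, of which 3 also carried UMIs of the neutrophil genes S100a8 and S100a9. The Il1b call was lost without that library (edgeR adjusted p = 0.391) and with DESeq2 (adjusted p = 0.0606). Lif was called against 0 endothelial-like UMIs (edgeR adjusted p = 0.002582). Il6 was not called, at log2 -1.13 ± 0.46 (edgeR adjusted p = 0.08366), nor was Il6st, at log2 -0.55 ± 0.28 (edgeR adjusted p = 0.1542).

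Against perivascular-like cells only Il33 was called higher, 1 of 10 where 6.63% of all genes were, and 0 were called lower, where 6.17% of all genes were, with 0 also lower at an unadjusted edgeR p under 0.05 and with DESeq2. Il33 was 77.8 times higher over the pooled classes (26.4 to 379, from 337 and 3 UMIs, edgeR adjusted p = 4.083e-05). Csf1 stood just outside the threshold, at log2 1.27 ± 0.42 (edgeR adjusted p = 0.05795), and was called with 20 principal components (edgeR adjusted p = 0.00775). For Il6st, Osmr and Il1r1 the differences were log2 0.17 ± 0.28, -0.33 ± 0.42 and 0.34 ± 0.39, and none was called by edgeR.

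The lists of partner genes were counted in the same fits, where 21.6% of all genes were called higher and 18.7% lower against myeloid-like cells, 15.2% and 13.4% against endothelial-like cells, and 6.63% and 6.17% against perivascular-like cells. Of the 12 IL-6 partners tested against myeloid-like cells, 3 were called higher in fibroblast-like cells, among them Il11ra1 and Jak1, and Il6ra, Osm and Ebi3 were called lower, named here after their values were seen. Of 10 IL-1 partners 1 was higher and 5 were lower, of 10 TNF and NF-kB partners 1 and 7, and of 4 colony-stimulating factor partners Il34 was higher and 3 were lower. The list medians were log2 0.13, -1.51, -1.48 and -4.62, against 0.00 over all genes tested. Against endothelial-like cells the counts higher and lower were 3 and 1, 3 and 1, 0 and 3, and 1 and 1, and against perivascular-like cells 1 and 0, 3 and 0, 1 and 0, and 0 and 1.

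The inflammatory fibroblast idea was then read within the tumor stroma, where the 148 fibroblast-like cells formed a cluster led by Dcn, Apod and Cpxm1 (22 and 13 cells) and a cluster led by Thbs4 and Cilp (60 and 53 cells). Of 16 genes of an iCAF list, which includes Il6 and Lif, 15 had at least 20 UMIs in these clusters, and Il6, with 11, was the one left out of the counts. In both libraries 11 of the 15 were higher in the Dcn cluster and 1 was lower, with a median log2 difference of 2.04, whereas 25.4% of all genes were higher and 36.4% lower, with a median of -0.10. Ly6c1, Clec3b, Dpt, Efemp1 and C3 showed the widest gaps among the iCAF genes, for example 1025 and 1480 CPM of Ly6c1 in the Dcn cluster against 15.2 and 13.4 in the Thbs4 cluster. Of 12 genes of a myCAF list, 1 was higher in the Dcn cluster and 11 were lower, with a median log2 of -2.87. Acta2, smooth muscle actin, had 3245 and 2868 CPM in the Thbs4 cluster and 1 UMI in the Dcn cluster, and Tagln had 5033 and 3924 CPM and 0 UMIs. Dpt, Clec3b and Pdgfra are also among the markers that named fibroblast-like clusters, and the clusters were formed from other genes of the same cells, so these counts describe the clusters and are no test.

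**Figure D3:**
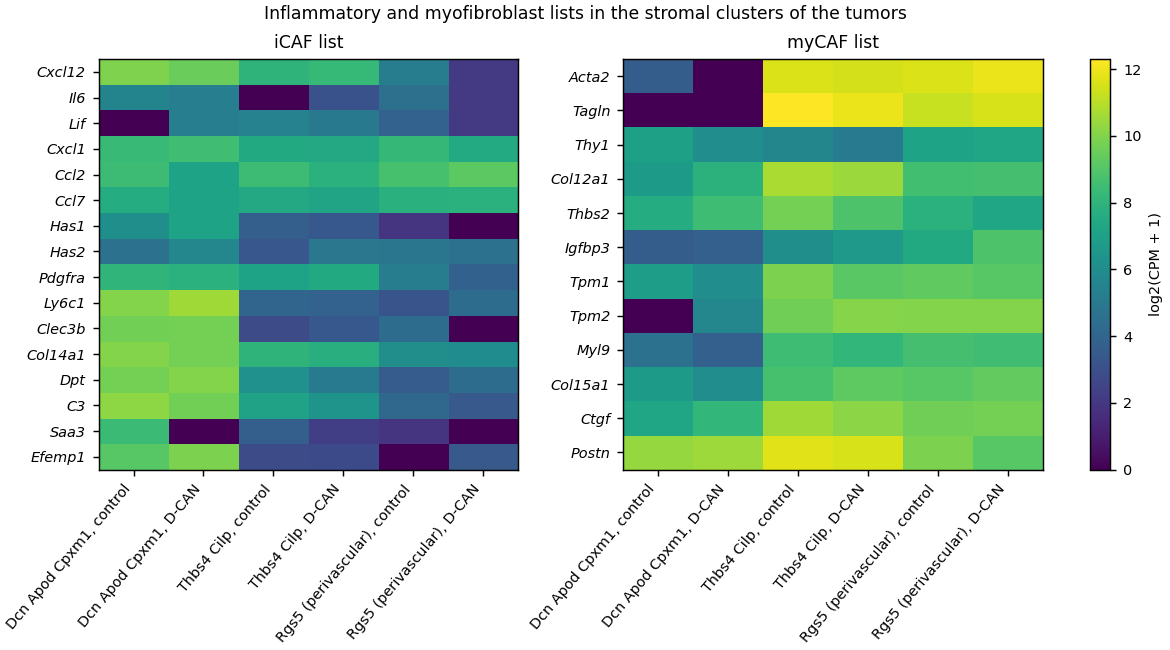
Levels, as log2(CPM + 1) on the colour scale, of the iCAF list (left) and the myCAF list (right) in the Dcn, Thbs4 and Rgs5 clusters of the control and D-CAN tumors. Ly6c1, Clec3b, Dpt and Efemp1 are high in the Dcn cluster, Acta2 and Tagln are high in the Thbs4 and Rgs5 clusters, and Cxcl1, Ccl2 and Ccl7 are spread over all 3.

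The cytokines themselves did not all follow that division. Cxcl12, a chemokine that the study names in both of its fibroblast populations, was 956 and 721 CPM in the Dcn cluster and 252 and 297 in the Thbs4 cluster. Il6 was 45.5 (12.4 to 117) and 38.0 (7.83 to 111) CPM in the Dcn cluster, from 4 and 3 UMIs, and 0 and 7.65 CPM in the Thbs4 cluster, from 0 and 4 UMIs. Lif was at 42.5 (23.2 to 71.3) and 30.6 (17.5 to 49.7) CPM in the Thbs4 cluster, from 14 and 16 UMIs. In the Dcn cluster Lif was at 0 and 38.0 CPM, from 0 and 3 UMIs, the latter all in 1 cell. It was therefore higher in the Thbs4 cluster in the control library only, and the intervals of these clusters overlapped in both libraries. Ccl2 was at 343 and 233 CPM in the Thbs4 cluster, 342 and 139 in the Dcn cluster and 417 and 586 in the perivascular-like Rgs5 cluster. Csf1 was at 182 and 247 CPM in the Thbs4 cluster and 137 and 127 in the Dcn cluster. Of the 9 tumor fibroblast-like cells with an Il6 UMI, 2 also had Lif, 6 Csf1 and 7 Il33, counts too small to compare with cells that lacked Il6.

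Cells in which Pdgfra and Pdgfrb were both counted, receptors that the study names together with Cxcl12 as shared by its iCAF cells, were compared with the other tumor fibroblast-like cells, 57 against 91 cells with median depths of 7340 and 5025 UMIs. Il6 had 8 UMIs in the former and 3 in the latter, a log2 ratio of 1.54 (-0.52 to 4.09), and a split by Cxcl12 instead gave -0.79 (-2.84 to 1.18). The log2 ratio was -0.32 (-1.43 to 0.75) for Lif, 0.22 (-0.19 to 0.62) for Csf1 and 0.35 (-0.04 to 0.74) for Il33, so that 0 of these 4 intervals left out 0, beside 9.22% of all genes. The Il33 interval left out 0 under several other settings, among them a ratio of 0.47 with 20 principal components and of 1.36 (0.97 to 1.75) with perivascular-like cells added. Tumor perivascular-like cells held only 3 Il33 UMIs, so the latter ratio also reflects the difference between these classes. Il1b had no UMI in either set and Tnf had 1. In the control library alone Il33 was 378 CPM in the double-positive cells and 200 in the others, a log2 ratio of 0.92 (0.33 to 1.5), and in the D-CAN library 207 and 191, a log2 ratio of 0.12 (-0.43 to 0.68). The double-positive cells were the deeper ones. Cells were also labelled after thinning to 2000 UMIs each, which left 10 double-positive and 126 other cells. The Il33 ratio was then 1.24 (0.68 to 1.76) and the Csf1 ratio -0.02 (-0.89 to 0.74). Il6 had 0 UMIs in the 10 cells and 11 in the others. These 11 are all the Il6 UMIs that tumor fibroblast-like cells held before thinning, so the levels themselves were not matched for depth.

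**Figure D4:**
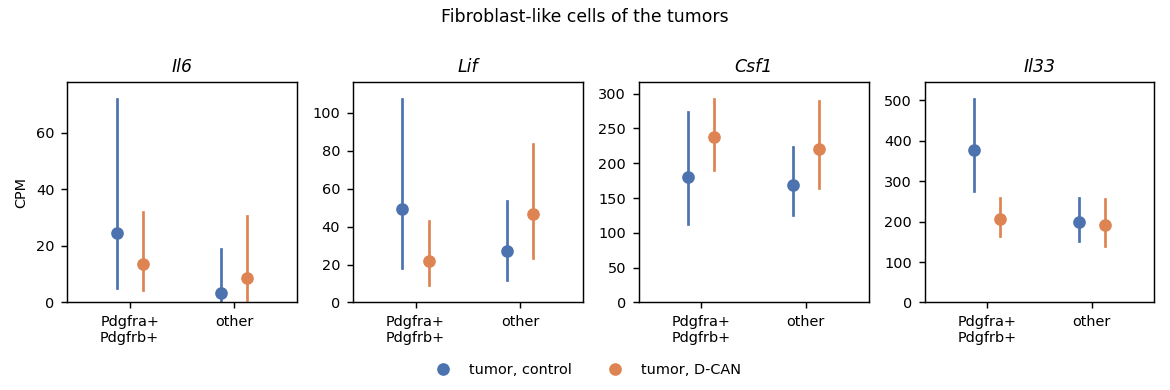
CPM of Il6, Lif, Csf1 and Il33 in tumor fibroblast-like cells positive for Pdgfra together with Pdgfrb and in the other fibroblast-like cells, control in blue and D-CAN in orange, with 95% counting intervals as lines. The Il33 level of double-positive control cells, 378 CPM, stands above the other points, and the intervals of Il6, Lif and Csf1 overlap.

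D-CAN and control libraries were set side by side for the 49 gene and class pairs with at least 20 UMIs in both together. The log2 ratio of D-CAN over control left out 0 in 14 of them, 10 higher and 4 lower in D-CAN, beside 13.2% of the 69771 gene and class pairs counted over all genes. With cells that carried markers of another class left out, 9 intervals left out 0. Csf1r in tumor myeloid-like cells was added, at -0.21. The Il6st and Csf1 ratios in tumor and the Csf1 and Il33 ratios in SAT fibroblast-like cells then included 0, and Il1b in SAT endothelial-like and Il33 in cancer-like cells fell under 20 UMIs. Because 1 library stands for each condition, mouse, capture and treatment cannot be told apart, and fewer expressing cells and less RNA per cell cannot be told apart in a class sum. In tumor fibroblast-like cells 2 of 6 ratios left out 0, beside 9.32% of all genes, namely Il6st at -0.49 (-0.97 to -0.01) and Csf1 at 0.42, whose lower bound was 0.00019. In tumor perivascular-like cells 1 of 4 did, beside 8.67%, namely Csf1 at -0.98 (-1.68 to -0.32). That ratio rested on 66 UMIs in 25 control cells and 28 in 16 D-CAN cells, which were 22.3% and 31.4% of the class. Median depths were 2459 and 4673 UMIs. With cells thinned to 500 UMIs each the shares were 5.51% and 5.43%, and with 2000 UMIs 17.8% and 12.1%. The counting interval does not cover the spread between cells. In tumor endothelial-like cells 1 of 3 ratios left out 0, beside 10.0%, namely Il6st at 1.15 (0.55 to 1.78). In tumor cancer-like cells 1 of 6 did, beside 16.4%, namely Il33 at 1.98 (0.62 to 3.58), from 6 and 21 UMIs.

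Il1b in myeloid-like cells was higher in the D-CAN library in both tissues, the only 1 of the 4 ratios that left out 0 in tumor (beside 8.91% of all genes) and the only 1 of 5 in SAT (beside 13.7%). The log2 ratio was 0.82 (0.36 to 1.29) in tumor and 0.97 (0.72 to 1.22) in SAT. The Retnlg cluster made up 6.13% (3.54 to 9.76) of SAT myeloid-like cells in control and 13.4% (8.16 to 20.4) in D-CAN. Within clusters the log2 ratio was 0.55 (0.25 to 0.85) in the Retnlg cluster and 0.79 (0.30 to 1.30) in the Retnla cluster of SAT. In the tumor clusters led by Ccl12, Ctss and C1qa and by Lyz2 it was 0.80 (0.29 to 1.33) and 2.0 (0.57 to 3.76). The other myeloid-like clusters had few Il1b UMIs. The SAT cluster led by H2-M2 had 3 in control and 14 in D-CAN. The tumor cluster led by Ccl12, C1qb and C1qa had 3 and 2, at 26.5 and 17.9 CPM, and that led by Apoe had 2 and 0. In the unnamed tumor cluster led by S100a8, S100a9 and Trbc2, which mixed neutrophil and T cell genes, the log2 ratio was -1.47 (-2.79 to -0.22). Csf1r in the same myeloid-like cells had ratios of -0.20 (-0.40 to 0.01) in tumor, an interval that left out 0 under several other settings, and -0.22 (-0.60 to 0.17) in SAT.

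In SAT fibroblast-like cells 2 of 5 ratios left out 0, beside 16.5% of all genes. Csf1 was at 0.50 (0.04 to 0.95) and Il33 at 0.70 (0.14 to 1.28), and the cluster led by Igfbp6, Mfap5 and Pi16 gave an Il33 ratio of 0.99 (0.25 to 1.74). In tumor fibroblast-like cells the Il33 ratio was -0.32 (-0.71 to 0.07), and in the Dcn cluster -0.88 (-1.63 to -0.16). In SAT endothelial-like cells 2 of 7 left out 0, beside 11.6%, namely Il6 at 0.66 (0.05 to 1.28) and Il1b at 3.34 (2.22 to 4.71), the latter from the 4 cells described above. Within the Selp cluster the Il6 ratio was 0.56 (-0.06 to 1.19). In SAT perivascular-like cells 1 of 5 did, beside 19.5%, namely Il6st at 0.69 (0.21 to 1.15), whose sign turned to -1.07 (-1.86 to -0.27) when cells with over 20% mitochondrial UMIs were left out. In SAT lymphocyte-like cells 2 of 4 did, beside 14.0%, namely Tnf at -0.55 (-0.89 to -0.21) and Lif at -1.52 (-3.05 to -0.16).

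**Figure D5:**
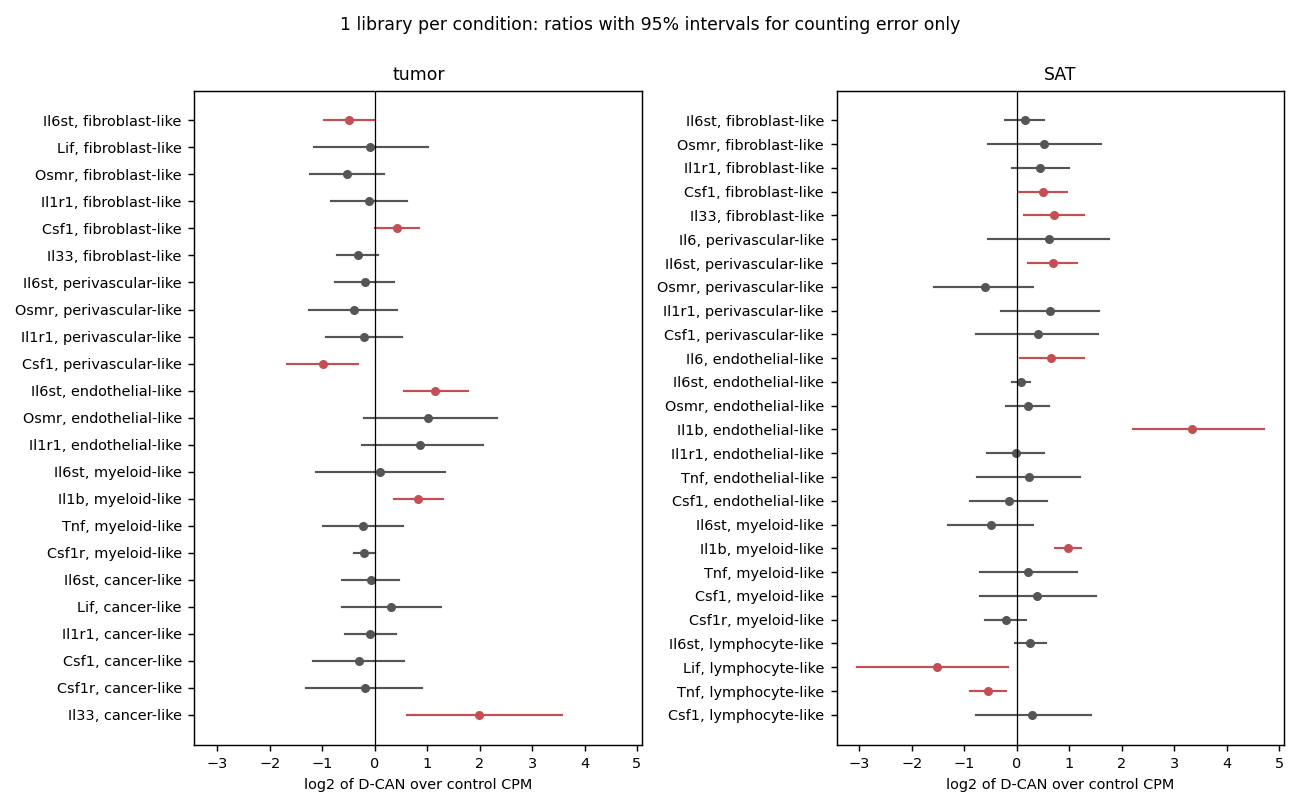
Log2 ratio of D-CAN over control CPM for each gene and class with at least 20 UMIs, tumor on the left and SAT on the right, with 95% intervals for counting error only and in red those that leave out 0. Il1b in myeloid-like cells lies to the right of 0 in both tissues, at 0.82 and 0.97, and most other intervals cross 0.

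Tumor and SAT were compared by value only, since 2 libraries against 2 cannot give an exact permutation p below 0.333. Besides Lif, Il33, Il1b and Csf1 above, Csf1r in myeloid-like cells had a tumor mean 2.36 times the SAT mean. For Il1b and Csf1r the myeloid-like class had a different make-up in each tissue. Clusters were formed per tissue, so the fibroblast-like, perivascular-like and endothelial-like classes were not matched between tissues either. Il6 was 79.1 and 117 CPM in the SAT Selp cluster and 0 and 7.54 in the Car4 cluster, beside 10.8 and 34.4 in tumor endothelial-like cells. Of the tumor fibroblast-like Lif UMIs, 14 and 16 were in the Thbs4 cluster. Make-up and tissue cannot be told apart in the means of any of these classes. In fibroblast-like cells Osmr had a tumor mean 2.17 times the SAT mean, while Il1r1 had a SAT mean 1.80 times the tumor mean. In endothelial-like cells the SAT mean was 2.06 times the tumor mean for Il6, 2.51 for Il6st and 1.98 for Osmr. For each of these genes the ranges of the tissues were apart. The share of all genes with ranges apart is not given, so these members cannot be set against it. Counting intervals of the nearest libraries still overlapped for Osmr in both classes, for Il1r1 and for Il6. They also overlapped for Lif and Il33 in fibroblast-like cells and for Csf1 in perivascular-like cells. The Il6 values nearest each other were 34.4 CPM in tumor D-CAN, from 10 UMIs, and 36.0 in SAT control.

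The genes outside the set with the most similar levels over the 20 class sums were found by the Pearson correlation of log2(CPM + 1) among 11796 genes, as a description, since the points share libraries and depth. For Il33 they were Tspan11 (0.966), Duoxa1 (0.947) and Ptgis (0.944), for Csf1 Fstl1 (0.936), Bicc1 (0.936) and Cygb (0.935), and for Il1b Csf3r (0.958), Ptafr (0.923) and Ppfia4 (0.912). Il6 was nearest to Hoxb3os (0.961), Il6st to Id3 (0.966), Osmr to Phldb2 (0.977), Il1r1 to Mpdz (0.976), Lif to Prorsd1 (0.917), Tnf to Coro1a (0.912) and Csf1r to Clec4a1 (0.945).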

How the data were processed

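The authors captured cells with 10x Chromium 3′ v3 chemistry, aligned reads with Cell Ranger 3.1.0 and STAR 2.6 to mm10 (Ensembl 93; 1 matrix header names another Cell Ranger release), and deposited raw UMI counts per gene and cell barcode. Gene positions are from GENCODE on GRCm38. Cells with at least 200 genes were clustered per tissue with Seurat 5.3.0 (2000 variable genes without the 10 members or the listed genes, 10 principal components, resolution 0.8). Clusters were named when at least 3 markers of a class were found and unnamed when the median mitochondrial share was over 25%. The authors' own cell labels were not used here. Scrublet marked 16 of 9128 cells, too few to have worked, so no cell was removed as a doublet, and leaving out the 178 highest scores was an alternative. Libraries shared 7 cell barcodes over all pairs. Levels carry exact Poisson intervals, shares of cells Clopper-Pearson intervals, and ratios of libraries exact conditional intervals. Class contrasts used edgeR 4.0.16 on class sums with the library as a block, checked on simulated counts, with DESeq2 1.42.0 as an alternative (R 4.3.3). The members and lists were chosen with earlier results of these data known. Named genes are the members, per list at most the 4 with the most UMIs and any a result turns on, and the genes nearest by correlation; other list genes were named after their values were seen. For D-CAN against control, no paired analysis was possible because each tissue and condition had 1 library.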

Additional observations from a re-analysis of the deposited data

Results flagged for a closer look

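For 10 gene and class pairs the D-CAN over control ratio pointed one way in the tumor and the other way in SAT. Few pairs had a ratio in both tissues. The remaining ones, with the same sign in both, were Csf1 in fibroblast-like, Osmr in perivascular-like, Il6st and Osmr in endothelial-like, and Il1b and Csf1r in myeloid-like cells. With 1 library per condition and tissue, the difference was not tested for any of them. The share of all genes with opposite signs is not given. In no pair did the intervals of both tissues leave out 0. The tumor interval left out 0 for Il6st in fibroblast-like and Csf1 in perivascular-like cells. The SAT interval did so for Il6st in perivascular-like and Il33 in fibroblast-like cells. In the rest of the 10 pairs both intervals included 0. The differences are tumor minus SAT on the log2 scale. For Il6st they were -0.64 in fibroblast-like, -0.87 in perivascular-like and 0.60 in myeloid-like cells. For Il1r1 they were -0.56 in fibroblast-like, -0.83 in perivascular-like and 0.89 in endothelial-like cells. Osmr and Il33 differed by -1.05 and -1.03 in fibroblast-like cells, Csf1 by -1.39 in perivascular-like cells and Tnf by -0.43 in myeloid-like cells. The opposite signs were lost under some settings for several of these pairs. In SAT perivascular-like cells, Il1r1 turned from 0.64 to -0.56 with at least 500 genes a cell, -0.49 with at most 20% mitochondrial UMIs and -0.45 at resolution 1.2, and Il6st turned under the same settings, so that both had the sign of the tumor. The ratio of Il1r1 in SAT endothelial-like cells, -0.02, turned under most settings. Il1r1 in tumor fibroblast-like cells turned with mixed cells left out, Il6st in tumor myeloid-like cells with at most 20% mitochondrial UMIs and Tnf in SAT myeloid-like cells with 20 principal components. Il6st, Osmr and Il33 in fibroblast-like cells and Csf1 in perivascular-like cells kept opposite signs under every alternative that gave a value in both tissues. The alternatives used the same libraries, so a kept sign is no replication.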

How the results depend on the processing

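Counts of members called higher or lower against myeloid-like cells, and higher against endothelial-like cells, stayed within 1.5 times the reported counts under every alternative run. The count lower than endothelial-like cells was 1, and 0 with DESeq2 or with mixed cells left out, 2 with at least 500 genes a cell, and 0 to 2 with a library left out. The count higher than perivascular-like cells was 1, and 2 without a filter on low counts, with at least 500 genes a cell, with the highest doublet scores left out or with 20 principal components, and 1 to 2 with a library left out; Csf1 was the gene added. Ratios of D-CAN over control that left out 0 fell from 14 to 9 with mixed cells left out. Of 450 single class contrasts 428 kept their direction and side of the threshold. Signs turned for Csf1r over endothelial-like cells (-0.078) and Il1b over perivascular-like cells (3.30) without the tumor D-CAN library (ranges with a library left out -0.078 to 0.85 and -6.205 to 3.30), for the latter also with mixed cells left out (3.17), and for Tnf over perivascular-like cells without the SAT D-CAN library (-0.11, range to 1.49) or with at least 500 genes a cell (-0.37); none of these passed the threshold. Il6st in SAT perivascular-like cells turned to -1.0 with at least 500 genes, -1.07 with at most 20% mitochondrial UMIs and -0.94 at resolution 1.2, and under the same settings Il6st in SAT endothelial-like cells went from 0.08 to 0.30, 0.35 and 0.35, with intervals that left out 0. For double-positive tumor fibroblast-like cells, a split by Cxcl12 gave -0.79 for Il6, 0.57 for Csf1 and 0.51 for Il33. Adding perivascular-like cells, which hardly carried Il33, gave 0.44 for Csf1 and 1.36 for Il33. Il33 was 0.42 with at least 500 genes or without the highest doublet scores and 0.47 with 20 principal components. It was 1.24 with cells labelled after thinning to 2000 UMIs, where levels were not matched for depth. The causes were not tested. Il6, Lif and Tnf had under 20 UMIs in most class sums of the tumors, which limits them.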
